A study of Mus musculus with 11 samples.

Results

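The natural killer gene complex of mouse chromosome 6 was taken as chr6:128300001-131000000 in the mm9 build, a rule that uses position alone. It holds 27 windows of 100 kb, of 25738 windows of that size in the genome, and the comparison on the same chromosome was with the other 1437 windows of chromosome 6. By the gene positions that came with this rule, the windows, numbered from the lower coordinate, were split into a left edge (windows 1 to 2), a Klrb1 and Clec2 part (windows 3 to 8), a Cd69 part (windows 9 to 11, chr6:129100001-129400000), a Klrd1 and Klrk1 part (windows 12 to 15), a Klra part (windows 16 to 21, chr6:129800001-130400000) and a right edge (windows 22 to 27). No mm9 annotation was used here, so exon and intron positions within these windows are not given. Hi-C, which joins and sequences DNA ends that lie near each other in the nucleus, had been run on Th1 cells, the helper T cells that make interferon gamma. The maps were 9 single cells cut with Bgl II (cells 1 to 7, 9 and 10), 1 single cell cut with Dpn II (cell 8), a single-cell pool, and an ensemble map of a population cut with Bgl II. All cells came from spleens of male C57BL/6 mice, were stimulated with anti-CD3 at 1 µg/ml for 3 days, selected with CD4 beads and grown with IL-2 at 20 ng/ml, and the labels name no other allele or treatment. The labelled cell type could not be checked against marker genes, since the files hold contacts and no expression.

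The complex encodes C-type lectin-like receptors of natural killer cells and other lymphocytes. Klrb1 genes encode receptors whose ligands include Clec2 proteins, and the genes of both families lie intermingled. Cd69 is an early activation marker of T cells, Klrd1 pairs with Klrc proteins to bind MHC molecules, Klrk1 (NKG2D) is an activating receptor for stress ligands, and Klra genes (the Ly49 family) encode receptors for MHC molecules.

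In RefSeq (GRCm38.p6), 76 genes run from Klrb1a to Klra1. They include 6 Klrb1 genes, 8 Clec2 genes, 3 Klrc genes and 13 Klra genes, of which 10 are protein coding and 3 are pseudogenes. Cd69 is gene 30 in this order, Klrd1 gene 44, Klrk1 gene 45 and Klra1 gene 76. Promoter sequences (250 bases before to 50 after the gene start) matched for 47 of the genes, Klrk1 and Klra1 among them. Those of Klrk1 (chr6:129623815-129624114, minus strand) and Klra1 (chr6:130386825-130387124, minus strand) are shown because the restriction sites of the assay decide where contacts can be read. These are GRCm38 coordinates and cannot be set against the mm9 windows. Capitals mark GATC, which Dpn II cuts, in Klrk1 and AGATCT, which Bgl II cuts and which contains GATC, in Klra1. Both sites read the same on either strand.
Klrk1: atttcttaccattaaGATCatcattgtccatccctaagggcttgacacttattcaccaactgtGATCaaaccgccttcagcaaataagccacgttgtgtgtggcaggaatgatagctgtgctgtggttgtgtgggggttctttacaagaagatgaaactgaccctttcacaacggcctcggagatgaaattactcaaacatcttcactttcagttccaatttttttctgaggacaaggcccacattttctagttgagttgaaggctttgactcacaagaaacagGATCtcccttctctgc
Klra1: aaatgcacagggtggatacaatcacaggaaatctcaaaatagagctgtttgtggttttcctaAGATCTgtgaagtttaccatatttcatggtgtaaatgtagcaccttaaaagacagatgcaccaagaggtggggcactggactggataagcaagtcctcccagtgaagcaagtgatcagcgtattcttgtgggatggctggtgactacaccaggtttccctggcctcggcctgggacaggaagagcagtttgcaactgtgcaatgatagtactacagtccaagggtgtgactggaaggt
The Klrk1 promoter held 0 Bgl II sites and 3 Dpn II sites, and that of Klra1 held 1 Bgl II site and 2 Dpn II sites. Of all 27025 promoters of 300 bases in the table, 7.42% held a Bgl II site and 48.0% a Dpn II site. In the run from Klrb1a to Klra1, 6 of 47 promoters (12.8%) held a Bgl II site and 23 of 47 (48.9%) a Dpn II site.

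Some promoters of duplicated genes in the complex share long identical stretches, and a read that falls wholly inside such a stretch cannot be placed at 1 gene. The pair with the longest shared run in the Clec2 family was Clec2h (chr6:128662135-128662434, plus strand) and Clec2e (chr6:129100854-129101153, minus strand). In the Klra family it was Klra9 (chr6:130193063-130193362, minus strand) and Klra3 (chr6:130337577-130337876, minus strand). The shared run is in capitals.
Clec2h: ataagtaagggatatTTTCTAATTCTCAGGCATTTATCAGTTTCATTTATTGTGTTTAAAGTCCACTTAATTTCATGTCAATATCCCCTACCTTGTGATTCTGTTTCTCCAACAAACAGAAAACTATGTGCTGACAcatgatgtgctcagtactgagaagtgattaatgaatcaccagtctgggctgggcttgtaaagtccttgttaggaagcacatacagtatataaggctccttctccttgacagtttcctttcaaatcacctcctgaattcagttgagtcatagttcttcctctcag
Clec2e: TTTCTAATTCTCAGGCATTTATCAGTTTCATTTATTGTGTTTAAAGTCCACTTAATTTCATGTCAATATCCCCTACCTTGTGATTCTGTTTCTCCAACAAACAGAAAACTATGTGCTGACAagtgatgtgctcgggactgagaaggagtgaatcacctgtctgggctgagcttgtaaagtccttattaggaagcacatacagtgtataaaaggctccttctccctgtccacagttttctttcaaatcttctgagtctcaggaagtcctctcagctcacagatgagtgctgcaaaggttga
Klra9: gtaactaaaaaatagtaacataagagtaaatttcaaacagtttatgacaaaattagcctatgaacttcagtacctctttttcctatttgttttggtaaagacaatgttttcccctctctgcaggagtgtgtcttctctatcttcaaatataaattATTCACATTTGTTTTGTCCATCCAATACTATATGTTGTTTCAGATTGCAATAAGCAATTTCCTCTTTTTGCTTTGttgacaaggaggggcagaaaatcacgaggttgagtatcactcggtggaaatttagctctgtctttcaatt
Klra3: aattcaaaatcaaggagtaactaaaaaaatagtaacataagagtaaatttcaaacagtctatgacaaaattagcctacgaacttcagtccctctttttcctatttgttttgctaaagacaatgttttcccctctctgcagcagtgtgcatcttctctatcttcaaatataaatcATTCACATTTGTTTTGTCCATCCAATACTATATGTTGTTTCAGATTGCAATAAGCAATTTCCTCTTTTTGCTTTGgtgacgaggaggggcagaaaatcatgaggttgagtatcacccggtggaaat
Clec2h and Clec2e shared 121 bases without a mismatch, and Klra9 and Klra3 shared 75. None of the promoters of Clec2h, Clec2e, Klra9 and Klra3 held a Bgl II or a Dpn II site, so neither enzyme cuts within the sequences shown. Among the 10 Klra promoters, 9 held at least 1 stretch of 20 bases that occurs in the promoter of another gene, against 39.9% of all promoters. The median share of such stretches was 65.1% per Klrc promoter, 21.4% per Klra promoter, 12.5% per Clec2 promoter, 1.07% per Klrb1 promoter and 0% over all promoters. Sharing was uneven within families, and Klra1 and Clec2m held no such stretch. The 5 promoters of the other Clec genes that lie in the run held none.

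The number of places where a contact can be read differed along the complex by more than 6 times between its parts. The ensemble listed 1039 distinct fragment-end positions in the complex, or 38.5 per 100 kb, against 54.4 per 100 kb in the rest of chromosome 6. The Cd69 part had 57, 64 and 84 fragment ends in its 3 windows (68.3 per 100 kb), and the Klra part had 39, 49, 4, 17, 9 and 38 in its 6 windows (26.0 per 100 kb). Each Cd69 window lay above every Klra window. The left edge had 81.0 per 100 kb, the Klrb1 and Clec2 part 41.7, the Klrd1 and Klrk1 part 47.0 and the right edge 13.0. Fewer than 20 fragment ends were listed in 8 of the 27 windows, 3 of them in the Klra part and 5 in the right edge, against 4.12% of windows on the 19 autosomes. Windows 24 and 25, both in the right edge, had 0 ensemble positions.

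The pool listed contacts where the ensemble listed none. In windows 24 and 25 it had 6 and 7 positions. Of 84 pool positions in the right edge, 46 (54.8%) lay more than 5 bp from any ensemble position, and of 95 in the Klra part 12 (12.6%) did. In the Cd69 part it was 1 of 140 (0.714%), in the whole complex 72 of 757 (9.51%), and in the rest of chromosome 6 1.93%. The ensemble and single-cell files thus do not list the same ends in the right edge, and values per fragment end there rest on 78 ensemble positions.

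**Figure D1:**
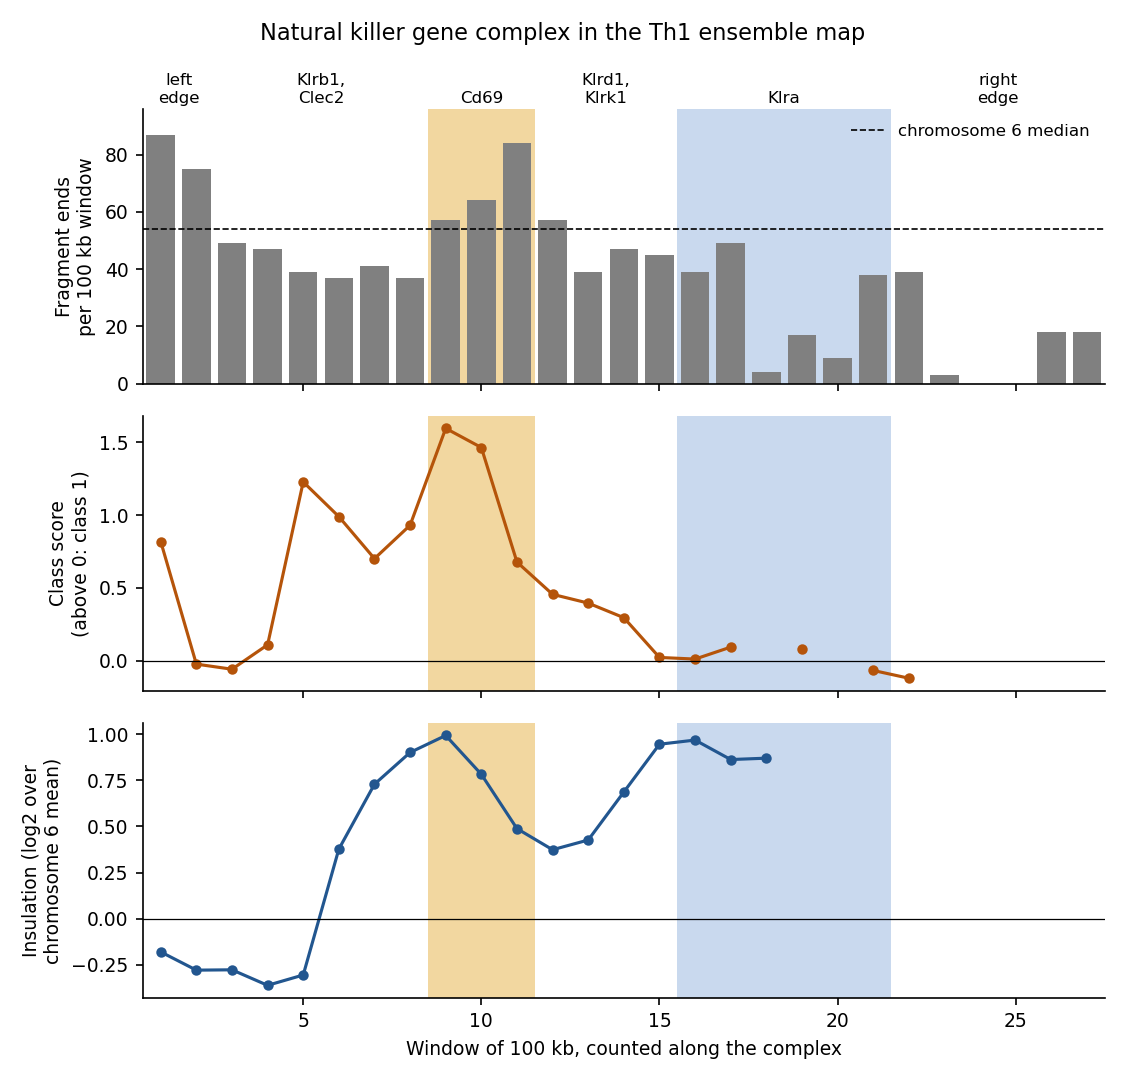
Profiles of the 27 windows of 100 kb, in order along the chromosome, in the ensemble map: fragment ends per window (top; the dashed line is the chromosome 6 median of 54), contact class score (middle) and insulation as log2 over the chromosome 6 mean (bottom). The Cd69 part (orange shading) has the 2 highest class scores, 1.60 and 1.46, and the Klra part (blue shading) stays between -0.07 and 0.09; windows without a value have no point.

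Contact classes are the 2 sets of regions that prefer contacts within their own set, the A and B compartments of the field; here they are numbered, and class 1 is the set with more fragment ends. In the complex, 20 windows could be scored and 16 of these were in class 1, against 38.4% of autosomal windows. The Cd69 part had class scores of 1.60, 1.46 and 0.68 (mean 1.25). The Klra part had 0.01, 0.09, 0.08 and -0.07 in its 4 scored windows (mean 0.03). All Cd69 windows lay above all scored Klra windows, and windows 9 and 10 lay at percentiles 88.4 and 86.7 of chromosome 6. The Klrb1 and Clec2 part ranged between -0.06 in window 3 and 1.23 in window 5 (mean 0.65), the third highest score of the complex. The Klrd1 and Klrk1 part declined along its windows with 0.46, 0.40, 0.29 and 0.02 (mean 0.29). The left edge had 0.82 and -0.02, and the only scored window of the right edge had -0.12, the lowest of the complex.

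Absolute class scores across chromosome 6 were smaller in windows with fewer fragment ends, though not near 0 in the median. The median absolute score was 0.55 in windows with 20 to 39 fragment ends, 0.67 with 40 to 59, 0.83 with 60 to 79 and 1.19 with 80 or more. The 3 Klra windows with at least 20 fragment ends had 38 to 49. Windows 3 to 8, of the Klrb1 and Clec2 part, had 49, 47, 39, 37, 41 and 37. The scores of these 6 windows were -0.06, 0.11, 1.23, 0.99, 0.70 and 0.93. The part that the number of fragment ends plays in the Klra scores was not tested. At 250 kb the mean score of the Cd69 part exceeded that of the Klra part by 1.18, against 1.22 at 100 kb. At 1 Mb the bin that holds the Cd69 part also holds windows 16 and 17 of the Klra part, and windows 18 to 21 had no score, so the parts could not be compared at that size.

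The far partners of the Cd69 part were more often in class 1 than those of the Klra part, also in maps that did not enter the scores. Far partners are the other ends of trans contacts (contacts with another chromosome) and of cis contacts over 5 Mb. In the pool without the 9 listed cells, hereafter the remaining pool, 185 of 257 far partners of the Cd69 part lay in class 1 (72.0%, 95% Wilson interval 66.2 to 77.1), and 68 of 176 of the Klra part did (38.6%, 31.8 to 46.0). The intervals do not overlap. They cover counting error alone, and contacts of 1 cell are not independent of each other. The Cd69 share was high for both kinds of contact, with 74.6% for cis over 5 Mb and 69.9% for trans, against 35.3% and 41.8% for the Klra part. The Klrd1 and Klrk1 part had 61.1% in class 1, the Klrb1 and Clec2 part 53.8%, the left edge 47.8% and the right edge 30.3%, so the share was highest at Cd69 and lowest at the right end. In the ensemble, whose cis contacts also made the class scores, the Cd69 part had 66.4% and the Klra part 52.6%.

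In the 9 Bgl II cells summed, 16 of 22 far partners of the Cd69 part lay in class 1 (72.7%, 51.8 to 86.8) and 2 of 12 of the Klra part did (16.7%, 4.70 to 44.8). Only 5 cells had a far partner in both parts. The Cd69 and Klra shares were 50% (1 of 2) and 33.3% (1 of 3) in cell 1, and 50% (3 of 6) and 50% (1 of 2) in cell 2. They were 83.3% (5 of 6) and 0% (0 of 1) in cell 4. In cells 6 and 9 they were 100% (2 of 2) and 0% (0 of 2) each, so single contacts decide these shares. The Cd69 share was higher in 4 of these cells and equal in cell 2. The mean difference was 60 ± 48.02 percentage points (SD, n = 5), with an exact two-sided sign-flip permutation p of 0.125, or 0.188 after Benjamini-Hochberg adjustment over the 6 tests made here. With 5 cells this test cannot go below 0.0625. The labels name no separate animals or cultures, and both the SDs and the p-values measure only the spread between these 9 cells, which may be technical.

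**Figure D2:**
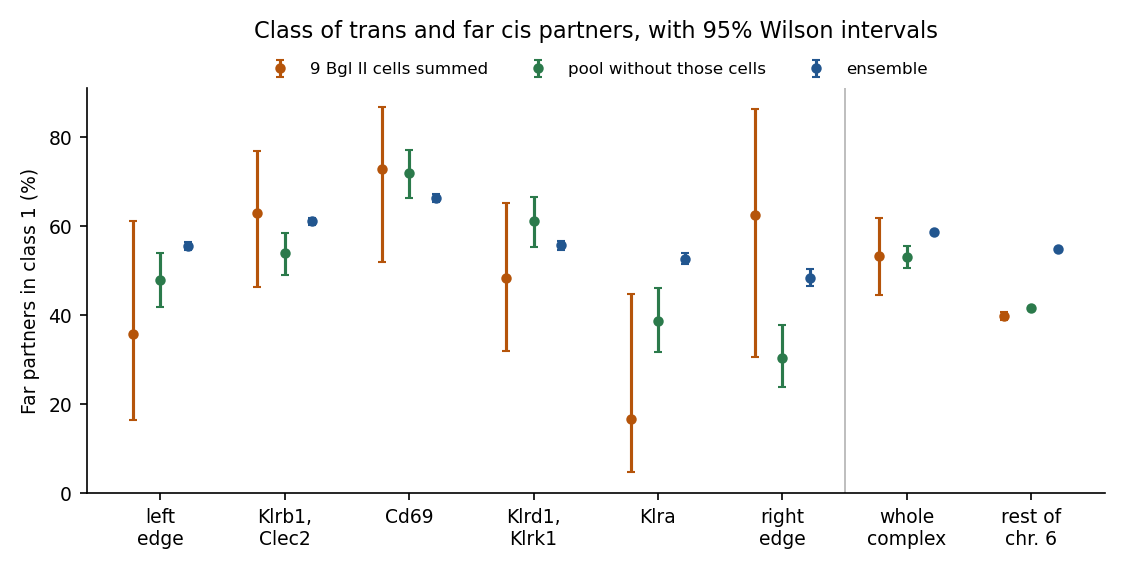
Share of far partners (trans contacts and cis contacts over 5 Mb) that lie in contact class 1, in percent, for each part of the complex, the whole complex and the rest of chromosome 6; points are the 9 Bgl II cells summed, the pool without those cells, and the ensemble, with 95% Wilson intervals. The Cd69 part is highest in all 3 maps, at 72.7%, 72.0% and 66.4%, and the Klra part stands at 16.7%, 38.6% and 52.6%; in the 9 cells its interval overlaps those of other parts.

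Over the whole complex, far partners were in class 1 more often than those of the rest of chromosome 6. The remaining pool had 53.0% against 41.5%, and the ensemble 58.6% against 54.9%. Across the 9 Bgl II cells the complex had 52.4%, 38.9%, 46.2%, 60%, 66.7%, 60%, 50%, 63.6% and 42.9% in cells 1 to 7, 9 and 10, and the rest of chromosome 6 lay between 35.0% and 44.6%. The complex was higher in 8 of 9 cells, the exception being cell 10. The means were 53.4% ± 9.71 in the complex and 39.8% ± 3.14 in the rest of chromosome 6 (SD, n = 9 cells), a mean difference of 13.63 ± 10.97 percentage points. The exact two-sided sign-flip permutation p was 0.0117 and the adjusted p 0.0586, so the difference did not pass 0.05 after adjustment. With cell 8 added the adjusted p was 0.0352 by the same exact test. In the cells the excess lay in cis. Summed over the 9 cells, 58.1% of partners of cis contacts over 5 Mb were in class 1 for the complex and 36.3% for the rest of chromosome 6, while for trans partners it was 48.3% and 47.3%, and the mean difference over cells with trans contacts alone was 0.133 percentage points. In the remaining pool the complex was higher for both kinds, with 51.6% against 37.4% in cis and 54.7% against 49.0% in trans. With classes from a map that was not balanced the mean difference over cells was -0.05 percentage points; 98.7% of chromosome 6 windows then fell in class 1, and between 53.3% (chromosome 17) and 99.7% (chromosome 18) on the other chromosomes. With classes in bins of 250 kb and 1 Mb the mean difference was 8.79 and 5.67 percentage points (adjusted p 0.0703 and 0.281, same exact test).

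Insulation, the log2 level of contacts that cross a point within 500 kb on either side, is low at domain boundaries. Minima of prominence 0.1 or more were called as boundaries, and 2 lay in the complex, while 7.07% of the autosomal borders between 50 kb bins were called. The first was at position 128700000, in the Klrb1 and Clec2 part, with a prominence of 1.20, above 89.8% of all called boundaries. It was not unusually deep: its insulation was -0.47, and 39.5% of all called boundaries had a lower value. The second was at 129450000, between the Cd69 part and most of the Klrd1 and Klrk1 part, with a prominence of 0.68. The 2 boundaries enclose 750 kb with the Cd69 part and windows 5 to 8 of the Klrb1 and Clec2 part. The nearest boundaries outside lay at 128150000 and 131450000. The first boundary was called at the same position under all 5 settings of bin, window and balancing, while the second lay between 129350000 and 129550000. The prominence of the second was 0.60 with a 300 kb window and 0.70 with 25 kb bins. It was 0.196 with a 1 Mb window and 0.163 without balancing, so the right end of the 750 kb is not firmly placed.

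The 2 boundaries differed in the share of contacts that crossed them. Nearby contacts are those with both ends within 500 kb of the position and at least 50 kb apart. At 128700000, 15 of 97 nearby contacts of the remaining pool crossed (15.5%, 9.60 to 23.96). This was compared with the 1853 positions of chromosome 6 that had at least 100 nearby contacts, a minimum that 128700000 itself misses. Of those positions 2.05% had a lower share, and their median was 33.8%. At the 118 boundaries among these positions the median was 25.3%. At 129450000, 50 of 137 crossed (36.5%, 28.9 to 44.8), which is not below the median of all positions. In the ensemble 24.2% of nearby contacts crossed the first position and 34.8% the second. In the 9 Bgl II cells 0 of 8 nearby contacts crossed the first position, which allows a share of up to 37.5% by 3 counts of the total (32.4% by the Wilson interval), and 1 of 11 crossed the second, in cell 1. Cell 8 had 0 nearby contacts at the first position and 1, which crossed, at the second. In the balanced ensemble map the second boundary is a local minimum between 2 stretches of higher insulation values. Its own insulation of 0.34 is above the chromosome mean. Insulation reached 0.99 in window 9, at percentile 98.8 of chromosome 6, and 0.97 in window 16, at percentile 98.4. In the remaining pool window 9 had 0.69 (percentile 94.3), and window 16 had no value. Without balancing, ensemble contacts within the Cd69 part were 1.74 times the mean of their distance on chromosome 6. Within the Klrb1 and Clec2, the Klrd1 and Klrk1, and the Klra parts they were 0.67, 0.69 and 0.24 times it. Dense contacts on both sides of the second boundary thus depend on balancing. Windows 19 to 27 had no insulation value, because too many of the bins within 500 kb on either side were nearly empty.

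**Figure D3:**
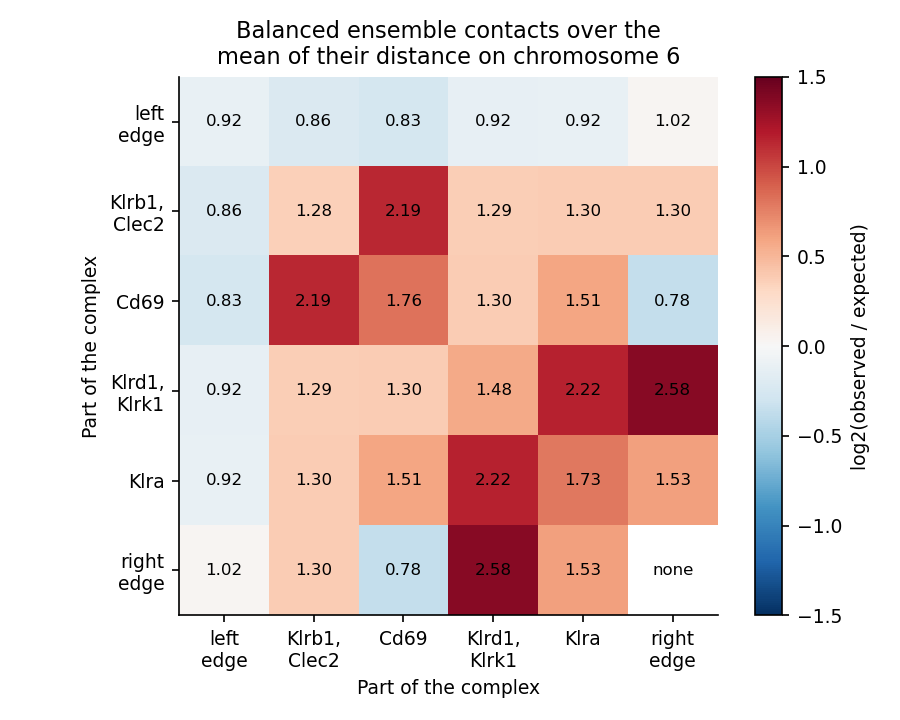
Balanced ensemble contacts between the parts of the complex, divided by the mean of contacts at the same distance on chromosome 6; numbers are the ratio, and colours its log2. The Klrb1 and Clec2 part with the Cd69 part (2.19), and the Klrd1 and Klrk1 part with the Klra part (2.22) and the right edge (2.58), are the 3 highest, of which the pairs with the Klra part and with the right edge are below 1 without balancing (0.57 and 0.65); the left edge is below 1 with all parts but the right edge, and without balancing above 1 with itself (1.84), the Cd69 part (1.501) and the Klrd1 and Klrk1 part (1.15).

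Of the neighbouring parts, 2 pairs met more than 2 times as often as the mean of their distance. In balanced ensemble contacts, the Klrb1 and Clec2 part met the Cd69 part 2.19 times as often as the mean of that distance on chromosome 6 (682 contacts, counting interval 2.03 to 2.36), and the remaining pool gave 1.77 (45 contacts, 1.29 to 2.37). The Klrd1 and Klrk1 part met the Klra part at 2.22 (213 contacts, 1.93 to 2.54) in the ensemble and 2.005 (29 contacts, 1.34 to 2.88) in the remaining pool. The Cd69 part met the Klrd1 and Klrk1 part, most of which lies beyond the second boundary, at 1.30 (367 contacts). With the Klra part, all of it beyond that boundary, the ratio was 1.51 (95 contacts, 1.22 to 1.85). The left edge met the Klrb1 and Clec2 part at 0.86 in the ensemble and 0.55 in the remaining pool. Windows 3 and 4 of that part lie on the left edge's side of the first boundary, so these ratios do not measure crossing alone. The left edge met the Cd69 part at 0.83 in the balanced ensemble (96 contacts), 1.12 in the remaining pool (7 contacts) and 1.501 in the ensemble without balancing. No direction is given for that pair. Without balancing, pairs with the Klra part were below 1, at 0.57 for the Klrd1 and Klrk1 part and 0.68 for the Cd69 part. The Klrb1 and Clec2 part with the Cd69 part was above 1 at 1.60. Balancing scales rows with few fragment ends up, and the Klra part has few.

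No single cell had a contact between the Cd69 part and the Klra part. The remaining pool had 10, and the 9 Bgl II cells hold 7.62% of the contacts of the whole pool. A count of 0 in the cells therefore says little. The 10 cells together had 10 contacts between parts, 5 of them in cell 1. In cell 1 the Klrb1 and Clec2 part met the Cd69 part in 2 contacts, 145 and 280 kb apart. The Klrd1 and Klrk1 part met the Klra part in cell 5 (257 kb) and in cell 9 (402 kb). Contacts inside the 750 kb between the 2 called boundaries, which hold the Cd69 part, numbered 8 in cell 1 and 2 in cell 9. There was 1 each in cells 2, 3, 5, 6 and 7, and 0 in cells 4, 8 and 10.

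Coverage, counted as contact ends per 100 fragment ends, was lower in the Klra part than in the Cd69 part in the remaining pool and in the ensemble. In the remaining pool the Cd69 part had 293 ends per 100 fragment ends (Poisson 95% interval 270 to 317), and the Klra part 215 (192 to 239). Relative to the rest of chromosome 6 these are 0.92 and 0.67, and in the ensemble 0.98 and 0.68. The right edge differed between the maps, with 1.10 in the remaining pool and 0.49 in the ensemble. The left edge had 0.91 and 1.26 in these 2 maps, the Klrb1 and Clec2 part 0.93 and 1.12, and the Klrd1 and Klrk1 part 1.00 and 0.90. Among the windows with at least 20 fragment ends, the lowest coverage in the remaining pool was in windows 16, 17 and 21, all of the Klra part, with 0.60, 0.66 and 0.67 of the chromosome 6 median.

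In single cells the Cd69 part had 13, 8, 2, 6, 6, 4, 2, 6 and 2 contact ends in cells 1 to 7, 9 and 10, and the Klra part had 4, 2, 4, 2, 1, 2, 1, 3 and 6. Per 100 fragment ends the Cd69 part averaged 2.66 ± 1.74 and the Klra part 1.78 ± 1.05 (SD, n = 9 cells). The Cd69 part was higher in 7 of 9 cells, and cells 3 and 10 were the exceptions. The mean difference of 0.88 ± 2.08 was not larger than the spread between cells (exact two-sided sign-flip permutation p 0.234, adjusted 0.281). It was 0.51 without cell 1 and 1.34 without cell 10. Cell 8, cut with Dpn II, had 3 and 2 ends in these parts.

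**Figure D4:**
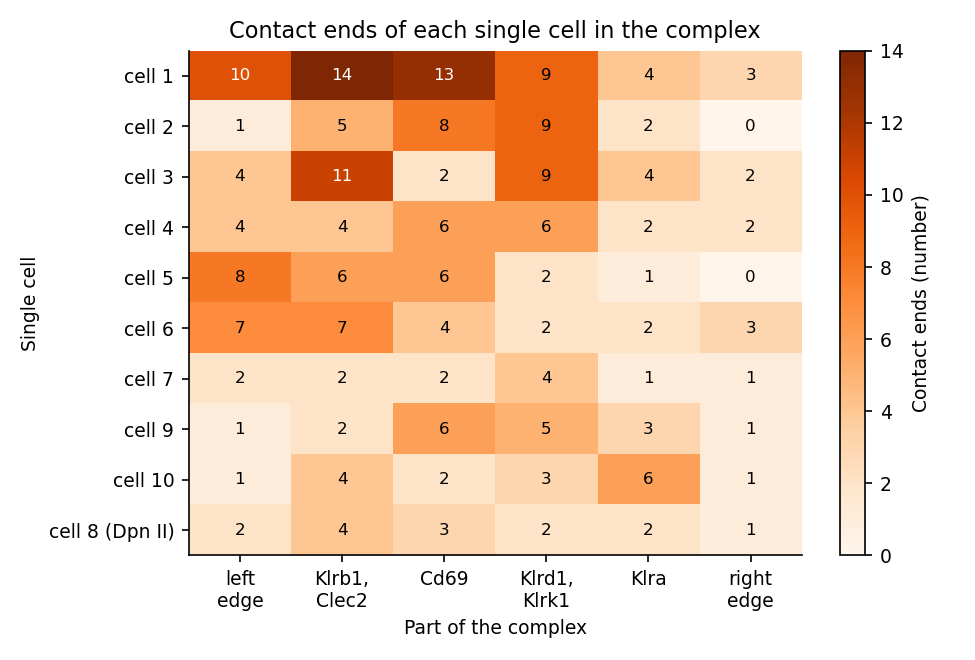
Number of contact ends of each single cell (rows) in each part of the complex (columns); the colour gives the number. Cell 1 has 53 ends in all, and the other Bgl II cells 12 to 32; cell 8 was cut with Dpn II.

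The whole complex had 53, 25, 32, 24, 23, 25, 12, 18 and 17 contact ends in cells 1 to 7, 9 and 10, and 14 in cell 8. These cells differ in depth, between 30665 contacts in cell 1 and 11156 in cell 10. Per 100 fragment ends, the complex averaged 2.45 ± 1.14 and the rest of chromosome 6 2.89 ± 0.95 (SD, n = 9 cells). The ratio of the complex to the rest of chromosome 6 was below 1 in 8 of 9 cells, the lowest being 0.54 in cell 7 and the exception 1.13 in cell 1. The mean of this ratio minus 1 was -0.16 ± 0.19, with an exact two-sided sign-flip permutation p of 0.0352 and an adjusted p of 0.0703. Without cell 1 it was -0.20, with an adjusted p of 0.0352, and with cell 8 added the adjusted p was 0.0391, both by the same exact test. Cell 8 was cut with Dpn II, but its ends were counted per Bgl II fragment end of the ensemble. Its value is therefore not on the same measure as those of the other cells. The ratio was 0.91 in the remaining pool and 0.96 in the ensemble.

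The share of contact ends that belong to trans contacts was higher in the complex than in the rest of chromosome 6 in the remaining pool and in the ensemble. It was 23.2% (21.7 to 24.7) against 18.3% in the remaining pool, and 52.9% against 49.4% in the ensemble. In cells 1 to 7, 9 and 10 the complex had 15.1%, 52%, 34.4%, 33.3%, 13.0%, 24%, 16.7%, 33.3% and 17.6%, and the rest of chromosome 6 had 7.37%, 22.1%, 24.9%, 26.4%, 20.5%, 12.4%, 12.6%, 11.6% and 14.1%. The complex was higher in 8 of 9 cells, all but cell 5. The means were 26.6% ± 12.7 in the complex and 16.9% ± 6.71 in the rest of chromosome 6 (SD, n = 9 cells), a difference of 9.73 ± 10.8 percentage points (exact two-sided sign-flip permutation p 0.0195, adjusted 0.0586). It did not pass 0.05 after adjustment. Without cell 5 the difference was 11.9 percentage points, and the adjusted p was 0.0352 both without cell 5 and with cell 8 added, by the same exact test.

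**Figure D5:**
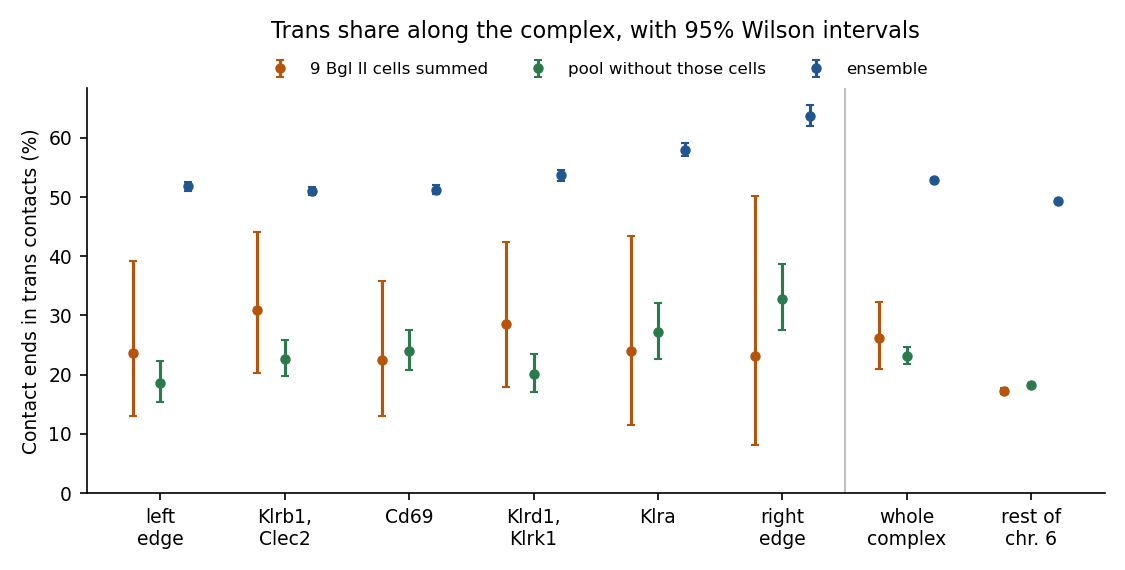
Percent of contact ends that belong to trans contacts, for each part of the complex, the whole complex and the rest of chromosome 6; points are the 9 Bgl II cells summed, the pool without those cells, and the ensemble, with 95% Wilson intervals. The whole complex lies above the rest of chromosome 6 in each map (26.2%, 23.2% and 52.9% against 17.2%, 18.3% and 49.4%), and the right edge is highest in the remaining pool and the ensemble.

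The trans shares of the Cd69 and Klra parts had overlapping intervals in the remaining pool and separate ones in the ensemble. In the remaining pool the Cd69 part had 144 of 600 ends in trans (24%, 20.8 to 27.6) and the Klra part 91 of 335 (27.2%, 22.7 to 32.2). Within the Cd69 part, windows 9 and 10 had 32.5% and 28.0%, at percentiles 99.2 and 95.5 of chromosome 6, and window 11 had 15.95%. The neighbouring window 8 had 31.1%, and window 22, the first of the right edge, had the highest share of the windows with at least 20 fragment ends, 34.5% (26.5 to 43.4). In the ensemble the Cd69 part had 51.3% (50.5 to 52.1) and the Klra part 58.0% (56.9 to 59.1), and windows 16, 17 and 22 lay at percentiles 97.9, 97.8 and 99.9, while windows 9 and 10 lay at 56.8 and 43.9. The trans percentiles of windows 9 and 10 thus were not alike in the remaining pool and the ensemble. Over the 9 cells the Cd69 part minus the Klra part was -5.63 ± 27.1 percentage points, above 0 in 3 cells and below 0 in 4 (exact two-sided sign-flip permutation p 0.578, adjusted 0.578). In the ensemble the right edge had the fewest fragment ends per 100 kb (13.0) and the highest trans share (63.7%), and the Klra part came next on both, while the other 4 parts did not follow one order: the Klrb1 and Clec2 part (41.7 per 100 kb) had the lowest share, 51.0%, below 51.8% in the left edge (81.0 per 100 kb). The part of fragment-end density in these differences was not tested.

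The 60 trans contact ends of the complex in the 9 Bgl II cells were examined for partners that recur. In cell 3, 4 of 11 trans ends went to chromosome 11, in cell 1, 3 of 8 went to chromosome 4, and in cell 4, 3 of 8 went to chromosome 7. Partners within 1 Mb of each other were found for 6 pairs of contacts of the same cell, in 5 cells, and for 3 pairs from different cells. How many such pairs unrelated contacts would give was not computed, so no recurrence is read from these counts. In the ensemble the trans contacts of the Cd69 part were spread over all other chromosomes, with 0.79 times the share of the rest of chromosome 6 on chromosome 19 and 1.13 times on X.

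Along chromosome 6, the ensemble contacts of the Cd69 part beyond 5 Mb were read in bins of 500 kb. The median ratio to the mean of that distance was 1.17 over 97 class 1 bins and 0.45 over 173 class 2 bins. For the Klra part these medians were 0.84 over 95 bins and 0.77 over 174 bins. The classes were made from these same ensemble cis contacts, so the medians describe the class scores in another form and do not support them. The 5 highest ratios of the Cd69 part were 3.43 at chr6:41000001-41500000 (6 contacts), 2.74 at chr6:142500001-143000000 (89 contacts), 2.68 at chr6:99000001-99500000 (72 contacts), 2.59 at chr6:134500001-135000000 (123 contacts) and 2.32 at chr6:47500001-48000000 (15 contacts). All 5 bins were in class 1. In the Klra part the 5 highest ratios rested on 3 to 7 contacts each, and 4 of the 5 bins were in class 2. Of the 5 Cd69 bins, the remaining pool had 0 to 3 contacts in each and the 9 Bgl II cells had 1 contact in all, at the bin that starts at 99000001.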

How the data were processed

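Contacts were measured by Hi-C in 9 Bgl II cells, 1 Dpn II cell, a pool and an ensemble of mouse Th1 cells. The deposited files hold other values, genomic positions in bp, with 1 line per contact and a chromosome and coordinate for each end, per the file headers. Coordinates are on mm9, a build named in the submitters' processing notes. Neither an aligner nor a read filter is given in the sources used here, and no read numbers came with the contacts. The single cells held 11156 to 30665 contacts, the pool 2294791 and the ensemble 51834382. The 174955 distinct contacts of the 9 cells were all in the pool and were removed from it, leaving 2119836. In cell 8, 3 contacts with another chromosome name than 1 to 19 and X were left out.

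The region, its parts and the tests were chosen with earlier results of these data known. Fragment ends are the distinct ensemble end positions. Class scores are the first eigenvector of the correlation matrix of balanced ensemble cis contacts in 100 kb bins (50 iterations, rows under 0.2 of the median left out), scaled to a root mean square of 1 and signed by fragment-end density. As a check of the sign, pairs of chromosomes with fewer same-class trans contacts than their class shares give were counted, 0 of 190. Insulation used 50 kb bins and a 500 kb window. Windows named are those with the highest and lowest values of a profile, with at least 20 fragment ends for ratios and percentiles. The 6 tests are exact sign-flip permutation tests over cells with Benjamini-Hochberg adjustment and a threshold of 0.05. Wilson and Poisson intervals are at 95% and cover counting error alone. Alternatives were other bins, no balancing, all 10 cells, each cell left out, cells thinned to 11156 contacts (100 draws), coverage per Mb, single contact kinds, wider parts (Cd69 windows 8 to 11, Klra windows 15 to 22), cis contacts under 20 kb left out and all other autosomal sequence in place of the rest of chromosome 6. The minimum of 20 fragment ends, the crossing shares, the split by contact kind, absolute scores by fragment ends, recurring trans partners, pool positions away from ensemble positions and promoter stretches of 20 bases were chosen after the data were seen. Scripts were tested on simulated data. Python 3.11.15, numpy 2.4.6, pandas 2.3.3, scipy 1.17.1 and matplotlib 3.10.9 were used.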

Additional observations from a re-analysis of the deposited data

Results flagged for a closer look

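Of 15 sets of values, each with 1 value per Bgl II cell, that were examined for a cell far from the others by Dixon's criterion, 3 had one, and it was cell 1 each time. Chance flags about 1 in 20 such sets, and the 3 sets share contacts. Cell 1 had 53 contact ends in the complex, against 12 to 32 in the other Bgl II cells. It had 15 contacts with both ends in the complex, against 1 to 6. It had 5.10 contact ends per 100 fragment ends of the complex, against 1.15 to 3.08. Cell 1 was also the deepest map, with 30665 contacts, and its coverage of the rest of chromosome 6, at 4.50 ends per 100 fragment ends, was the highest of the cells. The part of depth in these values was not tested.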

How the results depend on the processing

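Of the 6 tests over the 9 Bgl II cells, 0 passed an adjusted p of 0.05 by the exact sign-flip permutation test, and 3 had an unadjusted p under it. Coverage of the complex relative to the rest of chromosome 6 minus 1 passed with all 10 cells (-0.17). It also passed with cells thinned to 11156 contacts (-0.16), with cis contacts alone (-0.26) and per Mb of sequence (-0.41). Per Mb, fragment-end density enters this value by construction. The complex had 38.5 ensemble fragment ends per 100 kb, against 54.4 in the rest of chromosome 6. The per Mb pass is therefore not separate evidence of lower coverage. The trans share of the complex passed with all 10 cells (9.49 percentage points) and thinned (9.99). Class 1 partners of the complex passed with all 10 cells (12.7 percentage points), came to 8.79 with classes in 250 kb bins, 5.67 in 1 Mb bins and 0.133 with trans contacts alone, and reversed without balancing (-0.0517). The Cd69 part minus the Klra part passed per Mb of sequence for coverage (13.5 ends per Mb), where fragment-end density enters the value by construction, and was 0.30 in thinned cells, which hold fewer contacts. For class 1 partners it reversed without balancing (-3.33 percentage points), a setting in which 98.7% of chromosome 6 windows fell in class 1. The cause of the reversal was not tested. The trans share of the Cd69 part minus the Klra part, at -5.63, was -10.9 percentage points with wider parts and -2.85 with cis contacts under 20 kb left out.

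With each cell left out, the ranges were -0.20 to -0.12 for coverage of the complex, 0.51 to 1.34 for coverage of the Cd69 part minus the Klra part, 7.21 to 11.9 and -10.5 to -1.04 percentage points for the trans shares in the same order, and 11.5 to 15.6 and 50 to 75 percentage points for class 1 partners. Calls were gained without cell 1 (coverage of the complex), cell 5 (its trans share) and cell 10 (its class 1 partners, adjusted p 0.0469 by the exact test). The class score difference of the Cd69 and Klra parts was 1.18 in 250 kb bins, 0 in 1 Mb bins, where only windows 16 and 17 of the Klra part have a score and share the Cd69 bin, and 0.90 without balancing. Without balancing 98.7% of chromosome 6 windows fell in class 1. The median absolute score then was 0.23 with 20 to 39 fragment ends and 1.58 with 80 or more. The 0.90 is therefore no check of a difference between the 2 classes. The Klra part had 15.8 pool positions per 100 kb in place of 26.0 ensemble positions. The Cd69 and Klra parts met at 0.68 without balancing. Boundaries in the complex numbered 3 with a 300 kb window or without balancing. The groups share no replicate numbers that pair samples between groups. Each test was paired within a cell, since both of its values come from the same cell. Sparse fragment ends limit the Klra part and the right edge, and the single cells hold 1 to 14 contact ends per part where they hold any.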
